A study of Homo sapiens with 20 samples.

Results

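The sites described here were the SA1 and SA2 ChIP-seq peaks of CHM13 cells on hg38, chromosomes 1 to 22 and X. They numbered 82527 of the 188806 peaks in the 6 hg38 lists of the series. A peak was called shared when it overlapped a peak of the other subunit by at least 1 bp, and SA1-only or SA2-only otherwise. The SA1 list held 38153 peaks, of which 32744 were shared and 5409 were SA1-only. The SA2 list held 44374 peaks, of which 32764 were shared and 11610 were SA2-only.

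Cohesin is a ring-shaped complex that holds DNA strands together and extrudes loops. RAD21 closes the ring formed by the SMC proteins, and each ring carries either SA1 (gene STAG1) or SA2 (gene STAG2) as its HEAT-repeat subunit. The zinc-finger protein CTCF stops cohesin at its own binding sites, so cohesin peaks are commonly found where CTCF binds, and SA2 is also known at enhancers that lack CTCF.

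CHM13 cells come from a hydatidiform mole and were immortalised with telomerase. They were untreated and fixed with formaldehyde, SA1 and SA2 were precipitated in 3 replicates each, and the authors merged the replicates into 1 list per subunit. RAD21 lists of CHM13 cells (3 replicates) and lists of all 3 subunits from untreated RPE-1 cells (2 replicates), a telomerase-immortalised line from retinal pigmented epithelium, served as readouts that the split did not use. The SA1 and SA2 antibodies were the same in both lines and the RAD21 antibodies differed, and a little Drosophila chromatin was added to the CHM13 samples. Each list gives only starts and ends, with no replicate values, heights or read depth, so no test between SA1 and SA2 was possible and intervals are at 95% and cover counting error only.

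Sites whose centre lay in a centromere-model block of hg38 are given apart at the end. Only the largest block of each chromosome was taken, so any other centromere-model sequence was not left out. All other values are for sites outside these blocks. There, 36861 SA1 peaks included 4711 SA1-only sites (12.8%), and 43515 SA2 peaks included 11343 SA2-only sites (26.1%). The shared sites are represented below by their 32150 SA1 peaks. The 2 lists placed the shared sites closely, since the median distance between the SA1 and SA2 peak centres was 32 bp. The centres of 86.7% of shared sites lay within 100 bp of each other. A site called in 1 list can lie below the calling threshold in the other, and the lists cannot show how far below.

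The sequence content of the 3 groups differed, and examples are shown here before the values. A match to the CTCF core, written CCANNAGNNGGC and searched on both strands, is the letter pattern recognised by the central zinc fingers of CTCF. The search allowed no mismatch at the fixed letters, so variants of the pattern were not counted. Among the genes with the most shared sites, the shared site whose CTCF core match lay nearest to its centre is shown for each gene that had one. The genes were BLID, CAV1 (caveolin, the coat protein of membrane caveolae), BMPER (a secreted regulator of BMP signalling) and the unnamed gene ENSG00000258989. Each line gives 60 bases of the hg38 plus strand with the match in capitals, and these examples were chosen after the motif shares had been seen.
BLID (chr11:122108369-122108428): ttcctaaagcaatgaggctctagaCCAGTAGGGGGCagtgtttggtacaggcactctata
CAV1 (chr7:116598443-116598502): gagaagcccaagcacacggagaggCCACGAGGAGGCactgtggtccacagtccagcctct
ENSG00000258989 (chr14:61470648-61470707): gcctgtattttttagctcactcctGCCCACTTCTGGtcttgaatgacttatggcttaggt
BMPER (chr7:33886258-33886317): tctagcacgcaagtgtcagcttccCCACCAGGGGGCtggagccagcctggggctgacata

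SA1-only sites with the same pattern included the site next to MAGEL2, an imprinted gene, which was among the 3 RAD21-overlapping SA1-only sites nearest to the start of a listed gene. The others shown were the 2 RAD21-overlapping SA1-only sites with a match within 5 kb of a start of a HOX, protocadherin, collagen or keratin gene and little overlap with a UTR. PCDHB9 is a clustered protocadherin, a cell adhesion protein of neurons, and KRT12 is a keratin. Capitals mark the match.
MAGEL2 (chr15:23649061-23649160): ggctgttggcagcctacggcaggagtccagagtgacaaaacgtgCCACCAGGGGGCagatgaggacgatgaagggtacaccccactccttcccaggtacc
PCDHB9 (chr5:141187055-141187114): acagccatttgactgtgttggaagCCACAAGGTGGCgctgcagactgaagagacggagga
KRT12 (chr17:40863115-40863174): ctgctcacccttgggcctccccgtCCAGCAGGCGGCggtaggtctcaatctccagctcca

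SA2-only sites more often held the AP-1 element TGANTCA, the palindrome bound by FOS and JUN dimers. For each of the 5 genes with the most SA2-only sites, the site whose AP-1 match lay nearest to its centre is shown, with the match in capitals. All 5 of these sites overlapped a RAD21 peak and none lay within 5 kb of a gene start.
COLEC12 (chr18:413447-413506): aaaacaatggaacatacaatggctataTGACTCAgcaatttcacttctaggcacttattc
CTSC (chr11:88398524-88398583): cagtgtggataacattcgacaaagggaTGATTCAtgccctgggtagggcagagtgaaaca
PLPP4 (chr10:120426520-120426579): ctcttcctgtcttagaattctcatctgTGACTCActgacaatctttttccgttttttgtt
ARID5B (chr10:61939715-61939774): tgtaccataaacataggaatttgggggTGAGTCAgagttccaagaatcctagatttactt
CDC42EP3 (chr2:37764851-37764910): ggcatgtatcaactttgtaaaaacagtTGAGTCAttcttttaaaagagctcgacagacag

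SA1-only sites without RAD21 were often at gene starts and held CCGGAAG, the element bound by ETS factors. For 4 ribosomal protein genes such a site close to the start is shown with the match in capitals, RPL7L1 being a ribosomal protein-like gene of the same symbol family.
RPL7L1 (chr6:42879573-42879632): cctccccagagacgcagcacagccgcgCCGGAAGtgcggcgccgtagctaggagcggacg
RPS21 (chr20:62386942-62387001): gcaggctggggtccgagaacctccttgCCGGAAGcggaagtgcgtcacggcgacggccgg
RPS18 (chr6:33271911-33271970): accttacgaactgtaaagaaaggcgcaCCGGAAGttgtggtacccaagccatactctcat
RPS25 (chr11:119018365-119018424): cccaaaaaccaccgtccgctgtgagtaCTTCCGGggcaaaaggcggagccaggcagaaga

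At genes of cohesin regulation and of AP-1, sites of 2 groups lay side by side. PDS5B, a regulator of cohesin release, had a shared site of 639 bp centred at -77 bp from its start and an SA1-only site of 531 bp centred at 858 bp, both within 1 RAD21 peak of 2190 bp. JUN, an AP-1 subunit, had a shared site of 2656 bp at its start and SA1-only sites centred at 1841 and -2277 bp, all within 1 RAD21 peak of 5456 bp. ITGA6, an integrin of cytotrophoblast, had an SA2-only site centred 507 bp after its start. The 100 central bases of 4 of these sites are shown, and none of the 4 had a CTCF core or AP-1 match within 200 bp of the centre.
PDS5B, shared site (chr13:32586325-32586424): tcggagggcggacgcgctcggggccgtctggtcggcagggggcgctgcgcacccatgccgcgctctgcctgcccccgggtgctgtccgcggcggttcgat
PDS5B, SA1-only site (chr13:32587260-32587359): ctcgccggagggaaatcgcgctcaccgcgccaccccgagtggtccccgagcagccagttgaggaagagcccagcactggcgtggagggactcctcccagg
JUN, SA1-only site (chr1:58782157-58782256): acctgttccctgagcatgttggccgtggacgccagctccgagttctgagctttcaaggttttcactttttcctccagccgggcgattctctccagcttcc
ITGA6, SA2-only site (chr2:172427811-172427910): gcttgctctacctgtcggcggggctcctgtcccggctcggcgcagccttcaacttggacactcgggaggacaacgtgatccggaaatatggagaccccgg

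The locus on chromosome 20 that the study used to check the antibodies by ChIP-PCR was a shared site, at -12219 bp from the start of SIRPB2, an immune receptor gene. The SA1 peak there was 725 bp wide, the SA2 peak 765 bp and the RAD21 peak 890 bp, and RPE-1 cells had a peak of each subunit at the same place. No CTCF core or AP-1 match lay within 200 bp of its centre, whose 100 bases are shown. Variants that differ from these patterns at a fixed letter were not searched for, here or at the sites above.
Control site (chr20:1503756-1503855): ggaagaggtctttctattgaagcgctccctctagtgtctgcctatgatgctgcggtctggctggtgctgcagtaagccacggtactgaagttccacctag

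SA1-only and SA2-only sites were narrower than shared sites. The median width was 638 bp (order-statistic interval 635 to 640) for shared sites, 471 bp (466 to 477) for SA1-only sites and 517 bp (513 to 522) for SA2-only sites. The ranges overlapped widely, since the middle 50% of sites spanned 521 to 764, 385 to 600 and 419 to 672 bp. The RAD21 peaks they overlapped followed the same order, with medians of 813, 622 and 775 bp. Width was also tied to the split itself. Of SA1 peaks under 300 bp wide 46.0% were shared, and of those 700 to 1000 bp wide 94.8% were. The same shares were 32.1% and 83.2% for SA2 peaks. In every width class the SA2 list had the lower shared share, with intervals that did not overlap.

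**Figure D1:**
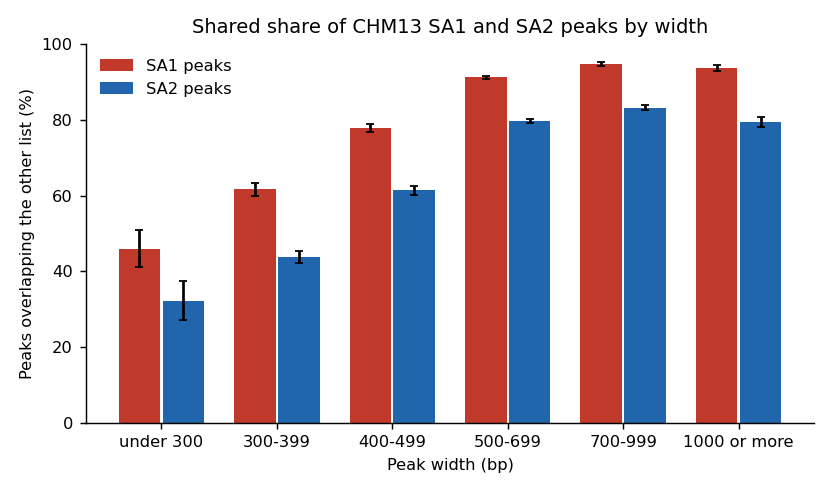
Share of CHM13 SA1 and SA2 peaks that overlap a peak of the other list (y axis, %) by peak width (x axis, bp), outside the centromere-model blocks. Bars are shares and whiskers are Wilson 95% intervals. Between the narrowest class and the class of 700 to 1000 bp, the SA1 share rises from 46.0% to 94.8% and the SA2 share from 32.1% to 83.2%.

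The widest sites lay at genes of different kinds. The widest shared sites were at FLRT2 (7280 bp), NRP1 (6094 bp) and KLF6 (5582 bp), which encode an adhesion receptor, a VEGF and semaphorin co-receptor and a zinc-finger transcription factor. The widest SA1-only sites were 3947 and 3448 bp wide, at chr21:8205080-8209026 and chr21:8388044-8391491, where the annotation gives the microRNA genes MIR6724-1 and MIR6724-3. They overlapped RAD21 peaks of only 449 and 507 bp. These 2 regions carry near-identical sequence, and how reads were divided between such copies was not tested. The third, 3397 bp wide, was at TRPS1, a GATA-type repressor. The widest SA2-only sites were at ERBIN (3740 bp), BAZ2B (3201 bp) and KLHL5 (3198 bp), with RAD21 peaks of 3719, 2170 and 3728 bp.

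RAD21 was present at nearly all shared and most SA2-only sites and at fewer SA1-only sites. A CHM13 RAD21 peak was overlapped by 99.6% of shared sites (Wilson interval 99.5 to 99.6), by 94.7% of SA2-only sites (10743 of 11343, 94.3 to 95.1) and by 81.5% of SA1-only sites (3841 of 4711, 80.4 to 82.6). The difference between SA2-only and SA1-only sites was 13.2 percentage points (Newcombe interval 12.01 to 14.4). By width the difference was uneven. Among sites 500 to 700 bp wide the RAD21 share was 96.3% for SA2-only and 73.7% for SA1-only sites, and among those under 300 bp it was 79.9% and 79.8%. In the narrowest class the shares lay within each other's counting error.

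Seen from the RAD21 list, more RAD21 peaks overlapped SA2 alone than SA1 alone. This order largely follows from the split, which gave 11343 SA2-only and 4711 SA1-only sites, most of them with RAD21. Of 73447 RAD21 peaks, 31596 overlapped both SA1 and SA2 peaks, 10396 overlapped SA2 alone, 3658 overlapped SA1 alone and 27797 overlapped neither. RAD21 peaks with SA2 alone had a median width of 763 bp, those with SA1 alone 610 bp and those with neither 575 bp. Few exclusive sites shared their RAD21 peak with a peak of the other subunit, as at PDS5B. This was so for 184 of 3841 SA1-only sites (4.79%, 4.16 to 5.51) and 254 of 10743 SA2-only sites (2.36%, 2.09 to 2.67).

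**Figure D2:**
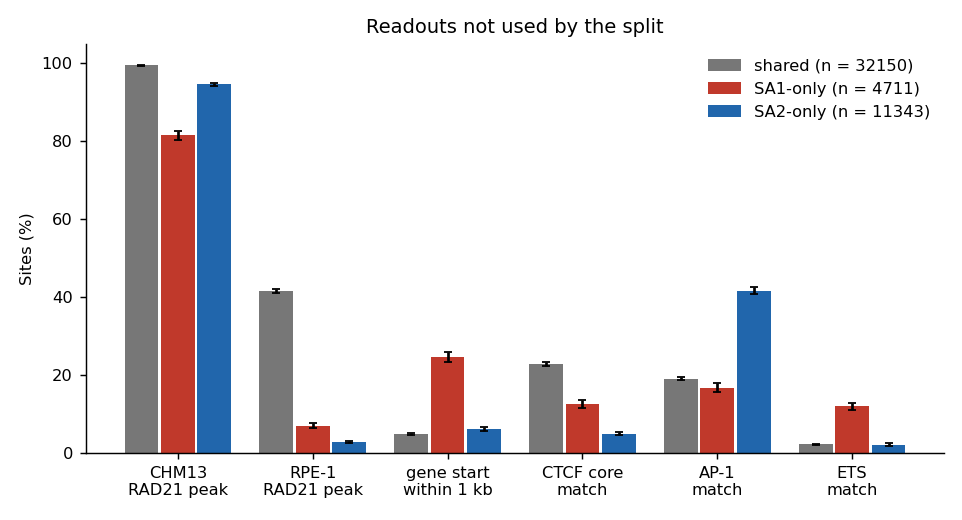
Share of shared, SA1-only and SA2-only sites (y axis, %) with each of 6 readouts that the split did not use: a CHM13 RAD21 peak, an RPE-1 RAD21 peak, a protein-coding gene start within 1 kb, and a CTCF core, AP-1 or ETS match within 200 bp of the centre. Whiskers are Wilson 95% intervals. SA1-only sites stand out at gene starts (24.7%) and for ETS (12.04%), and SA2-only sites for AP-1 (41.7%).

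SA1-only sites lay closer to gene starts than the other groups did. The distance from the site centre to the nearest protein-coding gene start had a median of 29.9 kb (26.9 to 33.3) for SA1-only sites, 52.1 kb (50.8 to 53.4) for shared sites and 74.6 kb (71.9 to 77.2) for SA2-only sites. Within 1 kb of a start lay 24.7% of SA1-only sites (1163 sites, 23.5 to 25.9), 4.92% of shared sites (4.69 to 5.16) and 6.26% of SA2-only sites (5.83 to 6.72). SA1-only sites exceeded SA2-only sites by 18.4 percentage points (17.1 to 19.8). Further out the order was different, as 19.1% of shared, 18.1% of SA1-only and 23.5% of SA2-only sites lay over 200 kb from a start. By gene part, 42.9% of SA2-only sites were in introns and 46.7% between genes, against 31.9% and 36.1% of SA1-only sites.

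SA1-only sites without RAD21 lay at gene starts more often than SA1-only sites with RAD21. Of the 870 SA1-only sites without a RAD21 peak, 550 (63.2%, 59.96 to 66.4) lay within 1 kb of a gene start, against 613 of 3841 (16.0%, 14.8 to 17.2) with RAD21. Of the 600 SA2-only sites without RAD21, 9 did (1.50%, 0.791 to 2.83). Read the other way, RAD21 was found at 52.7% of SA1-only sites within 1 kb of a start and at 91.0% of those over 5 kb away. For SA2-only sites the shares were 98.7% and 94.3%. Among sites over 5 kb from a start, RAD21 overlap of SA1-only and SA2-only sites was therefore closer than among all sites.

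SA1-only sites were also centred tightly on the start. Of those within 1 kb, 75.2% (72.6 to 77.5) were centred within 200 bp of it, against 41.1% (38.7 to 43.6) of shared and 38.3% (34.8 to 41.9) of SA2-only sites. For SA1-only sites without RAD21 this share was 83.8% (80.5 to 86.7). Their median position was 34.5 bp after the start (27 to 43), and that of SA2-only sites was 139.5 bp after it (93 to 177). The SA1-only sites without RAD21 at starts belonged to 550 different genes.

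**Figure D3:**
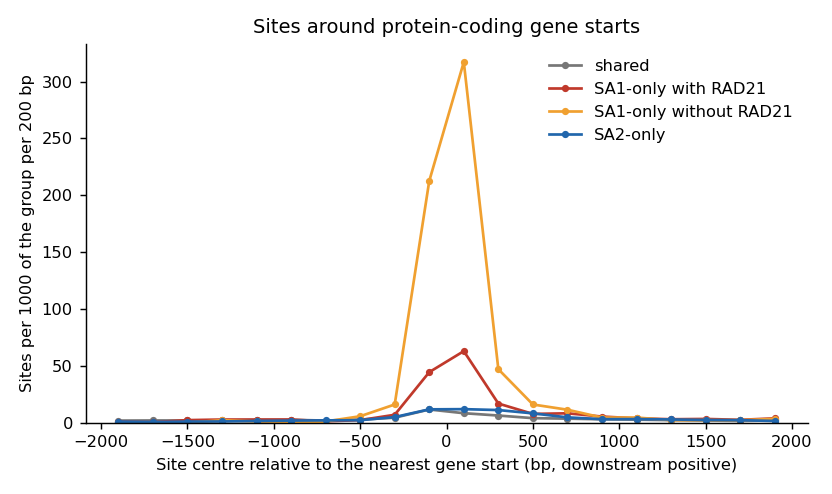
Number of sites per 1000 of each group (y axis) in 200-bp bins of the distance from the site centre to the nearest protein-coding gene start (x axis, bp, downstream positive). SA1-only sites are drawn with and without a RAD21 peak. In the 200 bp after the start, SA1-only sites without RAD21 reach 317 per 1000, those with RAD21 63.0, SA2-only sites 11.99 and shared sites 8.43.

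Gene lists and families showed which starts these were. Over all 19970 protein-coding genes, 19.4% had a shared site within 5 kb of the start, 9.71% an SA1-only site and 6.48% an SA2-only site, and each list is read beside these shares. Ribosomal proteins are the structural proteins of the ribosome, and their genes are among the most transcribed in dividing cells. Of 83 ribosomal protein genes, 25 (30.1%, 21.3 to 40.7) had an SA1-only site, 17 (20.5%, 13.2 to 30.4) a shared site and 0 an SA2-only site. A count of 0 allows a share of up to 3.61% here, taking 3 counts as the limit. Of the 25 genes, 15 had an SA1-only site without RAD21 and 10 one with RAD21.

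The ribosomal protein sites lay mostly on the start itself. The sites of RPL14, RPL21, RPL23 and RPL29, all with RAD21, were centred at 5, -7, 10 and 22 bp from the start and were 713, 815, 728 and 534 bp wide. Those of RPL9, RPS16, RPS9 and RPS7, all without RAD21, were centred at -40, 34, 41 and -59 bp and were 662, 592, 345 and 559 bp wide. The exception farthest out was RPL38, whose site lay at -3838 bp. These genes have many processed copies elsewhere in the genome, and the placing of reads between copies was not tested.

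Other families differed in the exclusive sites they had. Replication-dependent histone genes, which supply histones in S phase, had an SA1-only site at 9 of 69 starts (13.04%, 7.02 to 22.97), all with RAD21, and an SA2-only site at 0, which allows up to 4.35%. The 9 starts rested on 4 sites, because histone genes lie close together, and the SA1-only interval includes the 9.71% over all genes. Collagen genes had a shared site at 19 of 44 starts (43.2%, 29.7 to 57.8), an SA2-only site at 5 (11.4%, 4.95 to 24.0) and an SA1-only site at 0, which allows up to 6.82%. The interval of the SA2-only share includes the 6.48% over all genes. The 5 genes with an SA2-only site were COL1A2, COL5A2, COL11A1, COL13A1 and COL16A1, fibrillar, membrane-bound and fibril-associated collagens. Zinc-finger genes named ZNF had an SA1-only site at 51 of 508 starts (10.04%, 7.72 to 12.96), near the share over all genes, and an SA2-only site at 23 (4.53%, 3.04 to 6.70).

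Clustered protocadherins and HOX genes, both known CTCF-rich clusters, had shared sites more often than exclusive ones. The same order held over all genes, at 19.4% for shared, 9.71% for SA1-only and 6.48% for SA2-only sites. Of 53 protocadherin genes 23 (43.4%, 31.0 to 56.7) had a shared site, 9 (16.98%, 9.20 to 29.2) an SA1-only site and 7 (13.2%, 6.55 to 24.8) an SA2-only site. Because these genes lie close together, the counts rested on 18 shared, 5 SA1-only and 6 SA2-only sites, and the intervals count genes. The SA1-only interval includes the 9.71% over all genes. The SA2-only interval starts at 6.55%, just above the 6.48% over all genes. SA1-only sites were at starts of PCDHGA2, PCDHGA4, PCDHGA6 and PCDHGA9 of the gamma cluster, centred at -40, -40, -85 and -67 bp. SA2-only sites were at PCDHA3, PCDHA4, PCDHA6 and PCDHA8 of the alpha cluster, at 19, -37, -81 and -45 bp. The beta cluster had both, with SA1-only at PCDHB9 and SA2-only at PCDHB8 and PCDHB11. The sites at PCDHGA6, PCDHA6, PCDHA8 and PCDHB11 overlapped no RAD21 peak. Of 39 HOX genes 13 (33.3%, 20.6 to 49.02) had a shared site. HOXD3, HOXD8 and HOXD10 had an SA1-only site, and HOXC6 and HOXC10 had the same SA2-only site. Olfactory receptor genes, silent outside the nasal epithelium, had few of any kind, with 22 of 413 for shared (5.33%), 6 for SA2-only (1.45%) and 0 for SA1-only sites, which allows up to 0.726%. Keratin genes had 3, 1 and 1 of 55.

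Among the 16 genes of cohesin and its regulators, STAG1, STAG2, PDS5A, PDS5B, HDAC8 and CTCF had a shared site within 5 kb of the start. CDCA5 (sororin, which protects cohesin from release) had an SA1-only site of 594 bp centred 100 bp after its start, with no RAD21 peak. No gene of the list had an SA2-only site, which allows a share of up to 18.8%. Of 18 trophoblast genes, GATA2 and PSG1 had shared sites. TFAP2A, a trophoblast transcription factor, had an SA1-only site, and ITGA6, KRT7 and TP63 had SA2-only sites (16.7%, 5.84 to 39.2). Of 9 AP-1 genes, JUN, FOSL2 and JUND had shared sites and JUN also SA1-only ones. FOS and JUNB had SA2-only sites (22.2%, 6.32 to 54.7) of 454 and 491 bp, centred at -1578 and 263 bp from their starts. Among 18 imprinted genes, MAGEL2 had an SA1-only site and MEST an SA2-only site beside a shared one, while CDKN1C, IGF2, PEG10 and PHLDA2 had shared sites. In the cohesin, trophoblast, AP-1 and imprinted lists, each interval included the share over all genes, 19.4% for shared, 9.71% for SA1-only and 6.48% for SA2-only sites.

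Sites were also counted by nearest gene. Within 100 kb of a start, shared sites were nearest to 10991 genes, SA2-only sites to 3877 and SA1-only sites to 2934. As nearest gene, 154 genes had 5 or more SA2-only sites and 3 had 5 or more SA1-only sites. The nearest other site of the same group lay at a median of 29.4 kb (28.6 to 30.4) for SA2-only and 140 kb (133 to 148) for SA1-only sites, and within 10 kb for 24.1% and 8.07%. The SA2-only list is 2.41 times as long as the SA1-only list, which bears on these distances and was not corrected for.

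COLEC12, a scavenger receptor of the collectin family, had 9 SA2-only sites, 1 SA1-only site and 1 shared site. Its SA2-only sites ran from 0.654 to 87.3 kb after the start, 8 of them in introns and 8 with RAD21, and were 297 to 1444 bp wide. CTSC, the lysosomal protease cathepsin C, also had 9, of which 6 lay before the start, from -62.1 to -24.9 kb, and it had no SA1-only site. PLPP4, a lipid phosphatase gene, had 9 SA2-only sites between -69.8 and 54.1 kb, all with RAD21, and the 1 on its start was 1050 bp wide. ARID5B, a chromatin protein of fat and muscle differentiation, and CDC42EP3, an effector of the small GTPase CDC42, had 8 each, all with RAD21. An AP-1 match was present in 20 of the 43 SA2-only sites of these 5 genes, and a CTCF core match in 0. Over all SA2-only sites the shares were 41.7% and 5.01%.

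Most genes with an SA1-only site had a single one, 2597 of 2934. DPYD, the enzyme that begins pyrimidine breakdown, had the most, 7, of which 6 lay before the start, between -58.1 and -4.63 kb, and all had RAD21. Within that stretch, 4 sites of 637, 1343, 445 and 728 bp followed each other between -48.7 and -58.1 kb. WNT5A, a secreted WNT ligand, had 5, all with RAD21, including sites of 1727, 1347 and 1108 bp at 3.45, 9.57 and 8.06 kb after the start. FZD8, a WNT receptor, had 4, among them a site of 2432 bp centred at -0.073 kb from its start. FN1, the matrix protein fibronectin, had 4 SA1-only, 4 shared and 2 SA2-only sites. BLID had 5 SA1-only sites of 538 to 1211 bp, 5 SA2-only and 12 shared sites. None of the SA1-only sites of these 5 genes held a CTCF core match, and over all SA1-only sites the share was 12.6%.

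The motif shares set the 3 groups apart. A CTCF core match within 200 bp of the centre was found in 22.9% of shared sites (22.5 to 23.4), 12.6% of SA1-only sites (11.7 to 13.6) and 5.01% of SA2-only sites (4.62 to 5.42). Over all 7277260 windows of 400 bp on these chromosomes the share was 1.00%. An AP-1 match was found in 41.7% of SA2-only sites (40.8 to 42.6), 19.1% of shared sites (18.7 to 19.6) and 16.9% of SA1-only sites (15.9 to 18.0), against 12.03% of all windows. SA2-only sites exceeded SA1-only sites by 24.8 percentage points (23.4 to 26.2) for AP-1, and SA1-only sites exceeded SA2-only sites by 7.60 points (6.59 to 8.65) for the CTCF core. Within 1 kb of a gene start the CTCF core shares lay the other way, 5.33% of SA1-only (4.18 to 6.78) and 7.89% of SA2-only sites (6.12 to 10.1), with overlapping intervals. A match is a run of letters and not an observed binding event, and a site without a match can hold a variant of the pattern.

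Matches were centred on the sites. CTCF core matches reached 40.6 per 1000 shared sites, 26.3 per 1000 SA1-only sites and 7.85 per 1000 SA2-only sites in the 20 bp before the centre. The median distance of the match from the centre was 29, 30 and 35 bp in these groups. AP-1 matches reached 40.8 per 1000 SA2-only sites in the 20-bp bin centred 30 bp after the centre, 13.6 per 1000 shared sites and 12.5 per 1000 SA1-only sites.

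**Figure D4:**
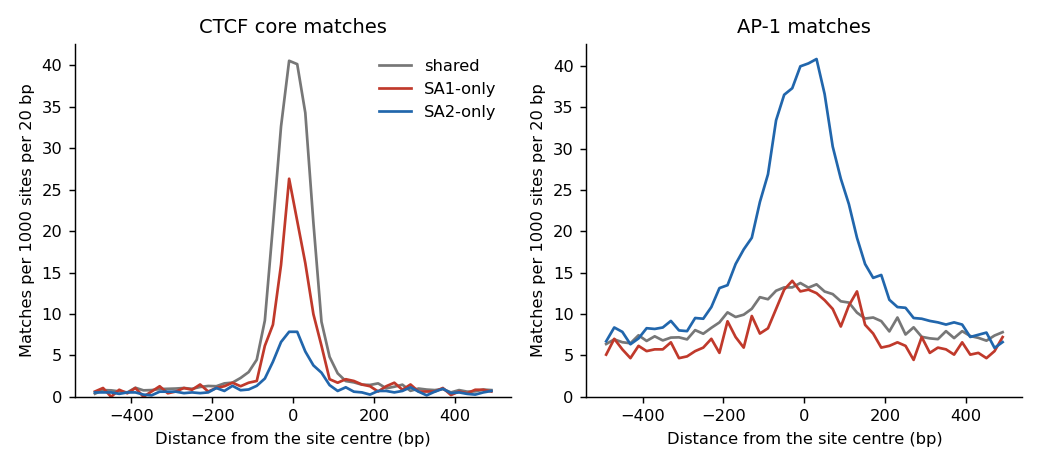
CTCF core matches (left) and AP-1 matches (right) per 1000 sites in 20-bp bins (y axis) by distance from the site centre (x axis, bp) for shared, SA1-only and SA2-only sites. CTCF core matches reach 40.6 per 1000 shared sites, and AP-1 matches reach 40.8 per 1000 SA2-only sites.

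The difference in AP-1 was present at every GC content. SA2-only sites had a median GC content of 42.3% in the 400-bp window, shared sites 43.0% and SA1-only sites 45.8%, and all windows 40.0%. Among sites of 35 to 40% GC, AP-1 matches were found in 48.3% of SA2-only, 24.9% of shared and 26.3% of SA1-only sites, and in 12.1% of all windows. At 50 to 60% GC the shares were 38.2%, 11.9%, 8.77% and 9.68%. For the CTCF core at 50 to 60% GC they were 9.76% of SA2-only, 33.7% of shared and 18.6% of SA1-only sites and 2.46% of all windows.

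Width and place moved the motif shares further. Among SA2-only sites the CTCF core share fell from 10.3% under 400 bp to 1.62% at 700 to 1000 bp, while the AP-1 share was 32.5%, 49.8% and 44.5% under 400, at 500 to 700 and at 700 to 1000 bp. Among shared sites the CTCF core share was 26.3% at 500 to 700 bp and 7.10% at 1000 bp or more. Over 5 kb from a gene start, AP-1 matches were found in 44.7% of SA2-only (43.7 to 45.7), 22.1% of SA1-only (20.7 to 23.5) and 20.5% of shared sites (20.03 to 20.97). TEAD factors bind CATTCC and commonly act with AP-1, and this pattern was found in 32.2% of SA2-only, 24.3% of shared and 22.2% of SA1-only sites, against 20.6% of all windows. The GATA pattern AGATAA was found in 24.0%, 23.1% and 19.1%, against 26.7%.

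At gene starts the ETS pattern CCGGAAG was most frequent in SA1-only sites. Within 1 kb of a start the pattern was found in 38.9% of SA1-only sites (36.1 to 41.7), 10.9% of shared sites (9.50 to 12.6) and 8.45% of SA2-only sites (6.62 to 10.7). The share was 13.6% of the 400-bp windows around all protein-coding starts. Of the sites within 1 kb, 75.2% of SA1-only, 41.1% of shared and 38.3% of SA2-only were centred within 200 bp of the start. The searched windows thus covered different positions around the start, and sites at equal positions were not compared. SA1-only sites at starts had the pattern in 44.2% without RAD21 (40.1 to 48.4) and in 34.1% with RAD21 (30.5 to 37.9). Their median GC content was 64.3%, that of shared sites there 65.0% and that of SA2-only sites 69.3%. Over all distances the E-box CACGTG was found in 6.50% of SA1-only, 4.39% of shared and 3.65% of SA2-only sites, against 3.66% of all windows. The telomere repeat TTAGGG was found in 13.1% to 14.5% of sites in the 3 groups and in 13.4% of all windows, and 96 of the 4711 SA1-only sites (2.04%, 1.67 to 2.48) lay within 1 Mb of a chromosome end against 1.04% of SA2-only sites (0.869 to 1.24).

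RPE-1 cells had cohesin at shared sites far more often than at exclusive ones. An RPE-1 RAD21 peak was overlapped by 41.7% of shared sites (41.2 to 42.2), 7.11% of SA1-only sites (6.41 to 7.88) and 2.96% of SA2-only sites (2.67 to 3.29). The RPE-1 RAD21 list held 14939 peaks against 73739 in CHM13 cells, and whether a site missing from it was below its calling threshold was not tested. SA1-only sites exceeded SA2-only sites by 4.15 percentage points (3.38 to 4.97). Near gene starts the order was different, with overlapping intervals. Within 1 kb RPE-1 RAD21 was found at 4.39% of SA1-only (3.35 to 5.72) and 7.18% of SA2-only sites (5.51 to 9.32). Among sites there with a CHM13 RAD21 peak, SA1-only sites were again the higher, at 8.16% (6.24 to 10.6) against 7.28% (5.58 to 9.44). These intervals overlapped too.

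Few exclusive sites overlapped any SA1 or SA2 peak of RPE-1 cells. Of 4711 SA1-only sites, 51 overlapped a peak of SA1 and not SA2 in RPE-1 cells, 12 both and 2 SA2 alone. Of 11343 SA2-only sites, 16 overlapped SA2 alone, 25 SA1 alone and 11 both. The RPE-1 SA1 list was the longer one, with 10688 peaks against 6350 for SA2, the reverse of CHM13 cells. The study reports fewer uniquely mapped reads for RPE-1 SA2 than for RPE-1 SA1, and fewer for both than for CHM13 cells. Its methods kept loci seen in at least 2 replicates, of 2 in RPE-1 and 3 in CHM13 cells. The part of these differences in the list lengths was not tested. Of the RPE-1 lists, 49.8% of RPE-1 SA1 peaks and 15.5% of RPE-1 SA2 peaks were exclusive.

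Along the genome, SA2-only sites outnumbered SA1-only sites by 2.41 to 1 (conditional exact interval 2.33 to 2.49). The ratio was above 1 on 22 of 23 chromosomes, with a median of 2.42 and an SD of 0.525 over chromosomes, which are units of 1 pooled list and not replicates. Chromosome 4 had the highest ratio, 3.22 (2.79 to 3.73), with 803 SA2-only and 249 SA1-only sites. Chromosome 19, the most gene-dense, had the lowest, 0.885 (0.6995 to 1.12), with 139 and 157. There 70.7% of SA1-only sites had RAD21. The intervals of chromosomes 4, 8 and 12 lay above the genome-wide ratio and those of 16, 17, 19, 20 and 22 below it.

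**Figure D5:**
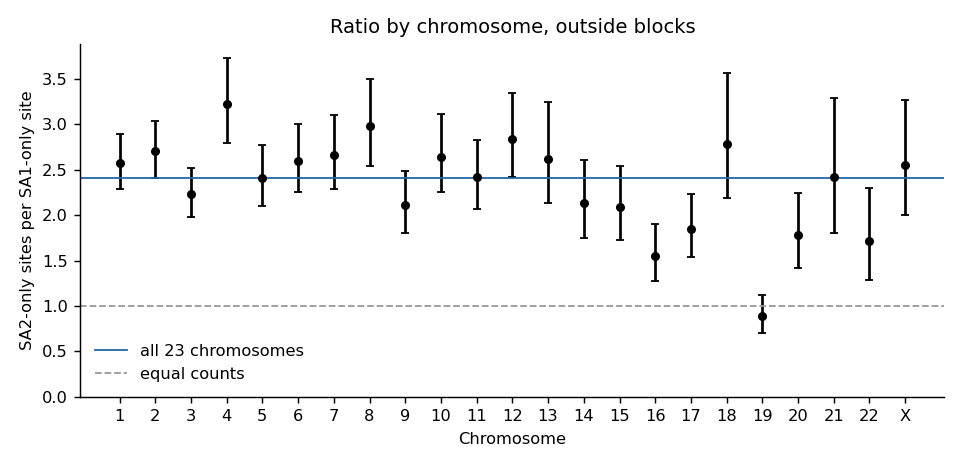
Number of SA2-only sites per SA1-only site (y axis) on each chromosome (x axis), outside the centromere-model blocks. Points are ratios, whiskers are conditional exact 95% intervals, the blue line is the ratio over all 23 chromosomes (2.41) and the dashed line marks equal counts. Chromosome 19 lies lowest at 0.885 and chromosome 4 highest at 3.22.

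The ratio differed between classes of gene density, without a steady order. In the 227 bins of 1 Mb with 20 or more protein-coding starts, there were 3.11 SA1-only and 3.70 SA2-only sites per bin, a ratio of 1.19 (1.08 to 1.32). In the 1049 bins with 1 to 4 starts there were 1.37 and 4.29, a ratio of 3.14 (2.96 to 3.33). The 327 bins without a start had a lower ratio than these, 2.39 (2.11 to 2.73). Shared sites rose from 6.06 per bin without a start to 15.7 per bin with 20 or more. SA2-only sites were at their highest, 4.63 per bin, with 5 to 9 starts.

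Single bins showed the extremes. The bin with the most SA1-only sites, at 90 to 91 Mb of chromosome 3 and 1.02 Mb from the block, had 16, of which 2 overlapped RAD21. It also had 15 shared and 8 SA2-only sites, no protein-coding gene start, and no CTCF core match in its SA1-only sites. Whether it holds centromere-model sequence outside the block was not tested. The next, at 65 to 66 Mb of chromosome 11, had 12 with 10 at RAD21 and holds a gene-dense stretch with CDCA5, CFL1 (cofilin) and CAPN1 (calpain). The third, around LPP and TPRG1 on chromosome 3, had 12, all with RAD21. The leading SA2-only bin, on chromosome 1 with F3 (tissue factor), CNN3 (calponin) and ARHGAP29, had 20 SA2-only and 2 SA1-only sites. The bins of PTN (pleiotrophin) and DGKI on chromosome 7 and of BICC1 and TFAM on chromosome 10 had 19 and 18 SA2-only sites and no SA1-only site. All SA2-only sites of these 3 bins overlapped RAD21. Of 531 bins with 10 or more exclusive sites, 492 had more SA2-only and 25 more SA1-only sites. The SA2-only list is 2.41 times as long as the SA1-only list, which bears on this count.

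Distances from exclusive to shared sites and between shared sites were of the same order, but they were measured differently. Between peak edges, the nearest shared site was at a median of 15.7 kb (14.8 to 16.8) from SA1-only and 20.7 kb (20.1 to 21.2) from SA2-only sites. Between peak centres, the nearest other shared site was at 20.2 kb (19.8 to 20.6) from shared sites. Centre distances include part of the peak widths, so which of SA2-only and shared sites lay nearer to a shared site is not decided. A shared site lay within 5 kb of 25.4% of SA1-only and 16.5% of SA2-only sites. A peak of the other list lay within 500 bp of 135 SA1-only and 170 SA2-only sites.

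In the centromere-model blocks, the order of the groups was different. The blocks, found as the largest cluster of matches to the CENP-B box core on each chromosome, covered 59.0 Mb and held 594 shared, 698 SA1-only and 267 SA2-only sites. SA1-only sites had a density of 11.8 per Mb there (11.0 to 12.7) and 1.65 per Mb elsewhere, 7.17 times as much, and SA2-only sites 4.53 (4.001 to 5.10) and 3.98. RAD21 overlap in the blocks was 33.2% for shared, 6.30% for SA1-only and 7.49% for SA2-only sites. The models stand for repeated arrays, and the part of repeated sequence in these counts was not tested. The blocks held 12.9% of all SA1-only and 2.30% of all SA2-only sites.

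On the CHM13 v1.0 build, chromosomes 1 to 22 and X were used and no block was left out. The sizes of the groups were similar to those on hg38 outside the blocks. There were 32300 shared, 4686 SA1-only and 11415 SA2-only sites, with median widths of 637, 468 and 518 bp. RAD21 was overlapped by 99.7%, 81.9% (80.8 to 83.0) and 94.9% (94.5 to 95.3). On hg38 with the blocks kept in, there were 5409 SA1-only and 11610 SA2-only sites. Of these, 71.8% and 92.7% overlapped RAD21. The cause of this difference between the builds was not tested. The ratio of SA2-only to SA1-only sites was again lowest on chromosome 19, at 0.974 (0.774 to 1.23), and highest on chromosome 4, at 3.23 (2.80 to 3.74). Blocks could not be located on that build, since its sequence was not used here.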

How the data were processed

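ChIP-seq peak positions of SA1, SA2 and RAD21 from CHM13 and RPE-1 cells were used as the authors deposited them, as 1 merged list per cell line and subunit on hg38 and on CHM13 v1.0. According to the methods, the authors aligned reads with bwa mem, removed secondary and supplementary alignments with samtools, called peaks per replicate with macs at a q-value threshold, merged them with the reduce function of GenomicRanges and dropped loci seen in fewer than 2 replicates. These steps are stated for CHM13 v1.0. For hg38 the submitters' processing notes name bcl2fastq 2.20, BWA, SAMtools and MACS2 and no parameters. Merging replicates before deposit means that weak sites enter only when seen repeatedly, and no value per replicate, height or depth remains.

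Peaks were split, measured and matched with Python 3.11.15, numpy 2.4.6, pandas 2.3.3 and scipy 1.17.1, and figures drawn with matplotlib 3.10.9. Gene starts, exons and biotypes came from GENCODE 44 (19970 protein-coding genes) and motifs from the hg38 sequence, in the 400 bp around each centre and on both strands. A block was the largest cluster of at least 20 matches to the CENP-B box core on a chromosome, with matches under 100000 bp apart joined. Shares carry Wilson intervals, differences Newcombe intervals, densities exact Poisson intervals, ratios conditional exact intervals and medians order-statistic intervals. The functions were tested on simulated data. Genes and sites were named by rule: the ChIP-PCR locus, the 3 RAD21-overlapping sites per group nearest to starts of listed genes, the 5 genes with most sites per group, the 3 fullest 1-Mb bins and 3 widest sites per group, and 12 gene lists and families. Sequences that overlapped a UTR by over 30 bases were not printed. The sequence of 1 further named site is not reported here. The example sequences around a motif were added after the data were seen. The members and lists were chosen with earlier results of these data known. Alternatives concerned the overlap rule, blocks, build, RAD21 overlap, width, joining, distance and motif. Total chromatin libraries have no peak list here and were not used.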

Additional observations from a re-analysis of the deposited data

Results flagged for a closer look

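The hg38 lists also held CHM13 peaks on sequences other than chromosomes 1 to 22 and X, which no comparison above used. They numbered 131 of 38284 SA1 peaks (0.342%), 129 of 44503 SA2 peaks (0.290%) and 142 of 73881 RAD21 peaks (0.192%). No peak list of the total chromatin input was at hand to set beside them, and a count of 0 would allow up to 3.

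The centromere-model blocks, left out of the comparisons of the 3 groups, held 698 SA1-only and 267 SA2-only sites, at 11.8 and 4.53 sites per Mb. SA1-only sites lay in all 23 blocks and SA2-only sites in 21. Repeated sequence and its part in these counts were not tested.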

How the results depend on the processing

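Leaving out replicates in turn and a stricter peak threshold were not run, because the lists pool replicates and hold no heights. No paired analysis was possible because the replicates of SA1 and SA2 are merged in the lists. The 16 recounts of SA1-only and SA2-only sites stayed within 1.5 times the reported counts, from 3322 to 5966 and from 9059 to 12620. In each alternative setting, SA2-only sites exceeded SA1-only sites in number, width, RAD21 and AP-1. SA1-only sites exceeded SA2-only sites in RPE-1 RAD21, gene starts and the CTCF core. Sites within 1 kb of a gene start were not 1 of these settings for the last 3 readouts except gene starts. There the CTCF core (5.33% of SA1-only, 7.89% of SA2-only) and RPE-1 RAD21 (4.39% and 7.18%) lay the other way, with overlapping intervals. The AP-1 alternatives were chosen after seeing the data.

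Among the recomputed shares, widths and chromosome ratios, those of AP-1 aside, 24 values lay outside the interval of the reported one. With only RAD21-overlapping sites, SA1-only sites had a median width of 462 bp, 8.62% with RPE-1 RAD21, 23.4% within 5 kb of a protein-coding start and 14.7% with a CTCF core, SA2-only sites a width of 524 bp, and the median chromosome ratio was 2.84. With reciprocal 50% overlap the widths were 488 and 536 bp. With blocks kept in, RAD21 overlap was 71.8% and 92.7%. With sites of at least 400 bp it was 79.9% and 96.3%, SA1-only sites were within 5 kb of a start in 39.1%, and SA2-only sites had RPE-1 RAD21 in 2.36% and a CTCF core in 3.68%. On CHM13 v1.0, RPE-1 RAD21 was at 8.49% and 3.86%. With all annotated genes the 5-kb shares were 42.1% and 23.3%, and at 1 kb 24.7% and 6.26%. The stricter CTCF core gave 6.67% and 2.18%, and whole SA2-only peaks gave 5.71%.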
